A study of Mus musculus with 7 samples.

Results

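The genes described here are a list of 10 named after the MHC class I antigen presentation pathway: the heavy chains *H2-K1* and *H2-D1*, their light chain *B2m*, the peptide transporter genes *Tap1* and *Tap2*, the loading factor *Tapbp*, the immunoproteasome subunits *Psmb8* and *Psmb9*, the class I transactivator *Nlrc5*, and *Cd274*, which encodes the checkpoint ligand PD-L1 and is not itself part of that pathway. The name class I pathway genes is used below for all 10. The 10 genes were listed by name and not by a rule on measured values, but earlier results of these data were known when they were chosen. They are 10 of the 21911 protein-coding genes that GENCODE M21 places on chromosomes 1 to 19, X and Y of GRCm38. H3K27-Ac, an acetylated histone found at active promoters and enhancers, was mapped by ChIP-seq in 3 cell clones, each grown from a different skin tumour of a mouse on an FVB/129P2 backcross that lacked all 3 products of *Cdkn2ab*. All clones carry this *Cdkn2ab-/-* deletion, they were untreated as far as the labels say, and no clone with an intact locus was measured. Each clone was picked for growth in soft agar, so it is a cultured line and not whole tumour tissue. Clones 1 and 2 had a single H3K27-Ac library each and clone 3 had 2, pooled by the authors. IgG controls came from clone 1 (1 library) and clone 3 (2), and none labelled clone 2 was analysed here. The sources used here do not say which control the list of clone 2 was called against, so its control reads, fold enrichments and percentiles rest on a control of unknown origin. The deposited data are 1 peak list per clone, and each list gives the position of a peak, the fold enrichment over local background at its summit, and the p and q values.

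Class I molecules carry short peptides made inside the cell to its surface, where CD8+ T cells read them. The proteasome cuts proteins into peptides, and interferon exchanges some of its catalytic subunits for *Psmb8* and *Psmb9*. *Tap1* and *Tap2* form the pump that moves peptides into the endoplasmic reticulum, where *Tapbp* (tapasin) holds empty class I molecules next to the pump until a peptide binds. *Nlrc5* is recruited to the promoters of class I genes through the SXY module, a set of sites bound by RFX, CREB/ATF and NF-Y factors, and the same promoters commonly hold NF-kB and interferon response sites. PD-L1 is not part of peptide presentation and is known as an interferon-induced brake on T cells.

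Promoter windows of 300 bases, from 250 before to 50 after a RefSeq start (GRCm38.p6), were found for 8 of the 10 genes, all but *Tap2* and *Nlrc5*. Those of 6 genes are shown because their letters can be set beside the peaks that follow: the paired heavy chains, the light chain, the start shared by *Tap1* and *Psmb9*, and the promoters of *Psmb8* and *Cd274*. All read 5′ to 3′ along the gene, and capitals mark every match to the motifs searched on both strands, which were the interferon-stimulated response element GAAANNGAAA (ISRE), the interferon-gamma element TTCNNNGAA (GAS), the NF-kB consensus, CCAAT (the NF-Y site, ATTGG on the other strand) and the full CRE TGACGTCA. The windows lie at chr17:34000284-34000583 on the minus strand (*H2-K1*), and on the plus strand at chr17:35262844-35263143 (*H2-D1*), chr2:122147437-122147736 (*B2m*), chr17:34187306-34187605 (*Tap1*), chr17:34197945-34198244 (*Psmb8*) and chr19:29367188-29367487 (*Cd274*).
H2-K1: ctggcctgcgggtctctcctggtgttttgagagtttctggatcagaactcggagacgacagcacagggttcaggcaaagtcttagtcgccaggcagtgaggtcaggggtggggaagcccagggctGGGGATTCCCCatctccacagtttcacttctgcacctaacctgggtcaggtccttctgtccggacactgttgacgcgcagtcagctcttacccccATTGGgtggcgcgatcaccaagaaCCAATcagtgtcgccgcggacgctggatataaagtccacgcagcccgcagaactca
H2-D1: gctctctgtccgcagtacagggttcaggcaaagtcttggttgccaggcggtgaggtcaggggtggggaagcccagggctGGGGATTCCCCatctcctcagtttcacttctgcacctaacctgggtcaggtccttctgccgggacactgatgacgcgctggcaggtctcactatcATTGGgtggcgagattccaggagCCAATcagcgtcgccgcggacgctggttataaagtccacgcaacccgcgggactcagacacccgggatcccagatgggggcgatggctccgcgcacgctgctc
B2m: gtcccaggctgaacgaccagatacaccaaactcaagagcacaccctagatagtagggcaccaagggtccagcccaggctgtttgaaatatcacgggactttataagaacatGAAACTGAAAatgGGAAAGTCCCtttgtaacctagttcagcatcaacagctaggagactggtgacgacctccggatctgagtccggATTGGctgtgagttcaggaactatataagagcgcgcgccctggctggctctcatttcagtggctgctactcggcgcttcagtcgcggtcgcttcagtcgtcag
Tap1: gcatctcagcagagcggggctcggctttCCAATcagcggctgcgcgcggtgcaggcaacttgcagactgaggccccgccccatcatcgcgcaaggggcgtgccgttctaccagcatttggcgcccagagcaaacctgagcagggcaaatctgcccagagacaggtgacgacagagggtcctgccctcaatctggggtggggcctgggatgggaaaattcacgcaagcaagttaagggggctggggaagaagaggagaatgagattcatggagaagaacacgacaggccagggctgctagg
Psmb8: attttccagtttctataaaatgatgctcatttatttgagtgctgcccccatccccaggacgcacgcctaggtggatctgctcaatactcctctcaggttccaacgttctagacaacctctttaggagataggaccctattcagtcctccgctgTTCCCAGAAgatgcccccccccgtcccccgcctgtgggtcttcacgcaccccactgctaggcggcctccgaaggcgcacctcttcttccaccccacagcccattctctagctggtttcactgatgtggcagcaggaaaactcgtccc
Cd274: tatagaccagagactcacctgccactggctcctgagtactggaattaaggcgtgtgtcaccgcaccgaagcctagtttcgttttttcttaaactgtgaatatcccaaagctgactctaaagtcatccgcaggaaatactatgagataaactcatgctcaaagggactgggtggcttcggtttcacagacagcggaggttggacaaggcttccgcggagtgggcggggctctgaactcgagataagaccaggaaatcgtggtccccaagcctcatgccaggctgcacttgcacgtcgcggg

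The windows of *H2-K1* and *H2-D1* have 225 identical bases when aligned, or 88.9% of the aligned bases, with 28 mismatches and 94 bases in gaps. Each holds the same NF-kB stretch, in which 2 matches are offset by 1 base (GGGGATTCCC and GGGATTCCCC), and a pair of CCAAT boxes, 1 on each strand. The *B2m* window holds an ISRE (GAAACTGAAA), an NF-kB match 3 bases further on (GGAAAGTCCC) and 1 CCAAT box. The *Psmb8* window holds 1 GAS match (TTCCCAGAA), and the *Tap1* and *Psmb9* windows share 1 CCAAT box, since they overlap on opposite strands. No motif was matched in the *Cd274* window, and no window of the 8 genes holds the full CRE, which says only that those letters do not occur there. Among the 8 genes an ISRE was found in 1, a GAS in 1, the NF-kB consensus in 3 and CCAAT in 6, while of all 32851 mouse promoter windows of the same length 3.44%, 8.30%, 8.46% and 37.4% hold these motifs and 1.79% the CRE. A match describes the letters and is not a bound site, and a window without a match may hold a variant that these letters miss. At *H2-K1* and *H2-D1* the absence of GAAANNGAAA thus does not show that an interferon element is lacking.

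The lists held 29182, 49587 and 29277 peaks for clones 1, 2 and 3 on chromosomes 1 to 19, X and Y. ChIP reads at the summit, solved from the fold enrichment and p of each peak, came out whole for 100% of the peaks to within 0.004 pileup units, with a median of 37, 34 and 53 reads. The weakest listed peaks rest on 13, 12 and 25 reads, so a gene without a peak had no site past the caller's threshold and may still carry the mark. All intervals given for reads are exact Poisson 95% intervals and cover counting error only. Fold enrichment depends on the depth of each ChIP and control library, so a promoter is ranked below by its percentile among the protein-coding genes with a promoter peak in the same clone. The clones were the replicates, and there was no second condition to test against.

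A promoter peak, meaning a peak within 1 kb of any annotated start, was found for 9, 10 and 9 of the 10 genes in clones 1, 2 and 3 (mean 9.33 ± 0.58 (SD, n = 3)), and 9 genes had one in all 3 clones. Of all protein-coding genes 49.8%, 56.9% and 48.1% had a promoter peak in these clones and 46.5% in all 3. The gene without one was *Nlrc5*, in clones 1 and 3. In strength these peaks ranked near or below the middle of all promoters. The median percentile of the strongest promoter peak, over the 9, 10 and 9 genes that had one, was 54.8, 33.7 and 32.3 (mean 40.3 ± 12.6 (SD, n = 3)), where 50 is the middle of all coding genes with a promoter peak. *Tap1* and *Psmb9* have the same strongest peak, which enters the counts and medians for each gene. The median of clone 1 is the percentile of that shared peak. The median fold enrichment was 20.4, 28.0 and 6.59 for these genes and 18.8, 39.2 and 8.30 for all coding genes with a promoter peak. The highest percentile in every clone was that of *H2-D1*.

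**Figure D1:**
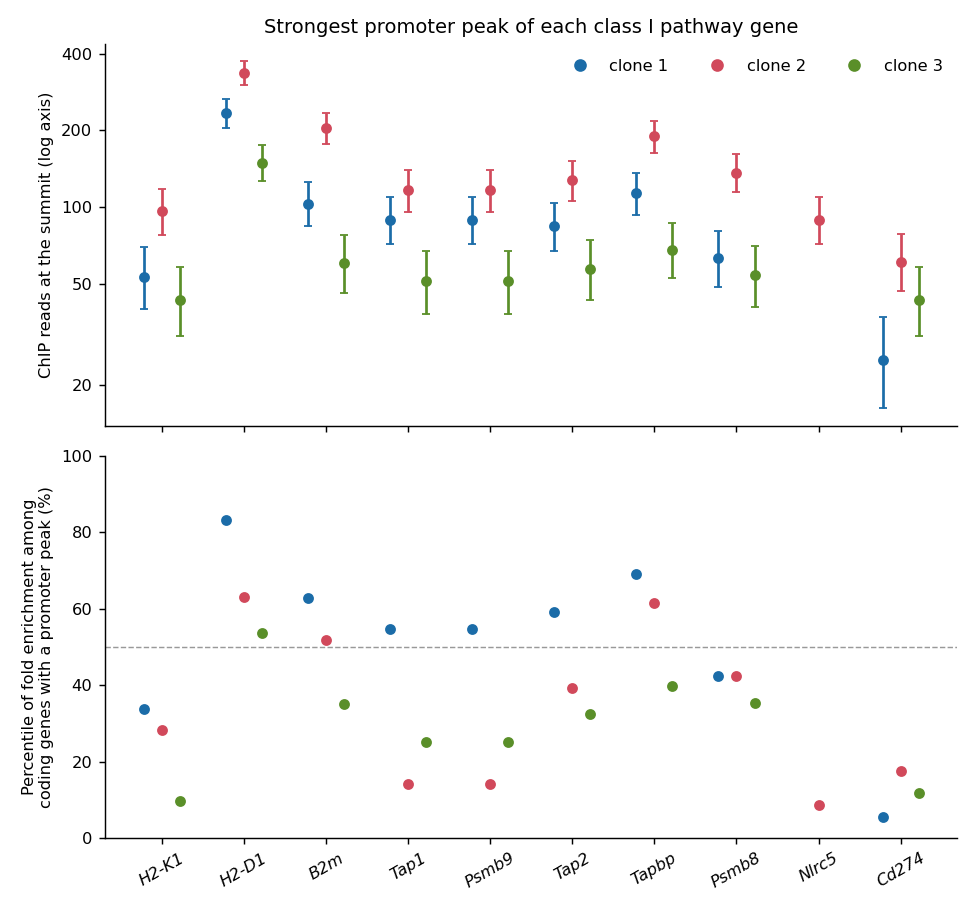
The strongest promoter peak of each gene in each clone, as ChIP reads at the summit with exact Poisson 95% intervals (top, log axis) and as the percentile of its fold enrichment among coding genes with a promoter peak in that clone (bottom, dashed line at the middle). *H2-D1* is highest in each clone with 233, 335 and 149 reads, *Tap1* and *Psmb9* show the same shared peak, and *Nlrc5* has a point in clone 2 only.

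The heavy chain genes differed from each other in every clone. *H2-D1* (chr17:35262730-35267499, plus strand) had 1 promoter peak per clone, with 233 reads in clone 1 (interval 204 to 265), 335 in clone 2 (300.1 to 373) and 149 in clone 3 (126 to 175), at fold enrichments of 33.2, 48.1 and 8.66 and percentiles of 83.3, 63.2 and 53.7. *H2-K1* (chr17:33996017-34000347, minus strand) had 53 reads (39.7 to 69.3), 96 (77.8 to 117) and 43 (31.1 to 57.9) at fold enrichments of 14.0, 24.2 and 4.55 and percentiles of 33.7, 28.3 and 9.57. The *H2-D1* summit thus held 4.40, 3.49 and 3.47 times the reads of the *H2-K1* summit (mean 3.78 ± 0.53 (SD, n = 3)), and the intervals of the genes did not overlap in any clone. The ratio of fold enrichment was smaller, 2.38, 1.99 and 1.90, and the local background was higher at *H2-D1*, with 2, 2 and 4.42 control reads against 0.677, 0.743 and 2.13 at *H2-K1*. With 3 clones a two-sided exact permutation test of pairs cannot go below p = 0.25, so the size and the intervals are given in its place.

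The part of the printed window under a peak differed as well. At *H2-D1* the summits lay in an intron 593, 594 and 581 bp inside the outermost start, and the peaks of all clones covered the whole window printed above. At *H2-K1* the summits lay 153, 70 and 168 bp inside the nearest start, in a coding exon or an intron, and the peak of clone 1 was 407 bp long and that of clone 2 1998 bp. That start, at position 34000208, is an inner one, and the outermost start of *H2-K1* is at 34000347. The distances at the heavy chain genes are thus from unlike starts and do not compare the positions of their summits. The printed *H2-K1* window was covered in full in clone 2 and not at all in clones 1 and 3. Its NF-kB stretch was thus under a peak in clone 2 alone, while the same stretch at *H2-D1* was under a peak in every clone. In clone 3 a second *H2-K1* peak lay 317 bp upstream of the outermost start, with 51 reads at a local background of 4 control reads and a fold enrichment of 3.35. Of all 64-base words in the 2 kb around the outermost start, 95.1% at *H2-K1* and 99.4% at *H2-D1* occur once in the reference genome, and over the gene bodies 89.9% and 92.3%. The part of read mapping between related class I genes, or between the alleles of the clones and the reference, was not tested.

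*B2m* (chr2:122147686-122153083, plus strand), the light chain that every class I molecule needs to fold, had 103 reads in clone 1 (84.1 to 125), 204 in clone 2 (177 to 234) and 60 in clone 3 (45.8 to 77.2), with percentiles of 62.8, 51.8 and 35.1. Its strongest summits lay 231, 361 and 339 bp inside the start, in an intron. In clones 1 and 3 a second peak lay upstream, with 39 and 50 reads at 463 and 511 bp before the start, and the stretch between the peaks held the start itself in clone 3. The ISRE and NF-kB letters of the *B2m* window lay in the stretch between the peaks in both clones, where 53.7% and 20.7% of the window was under a peak. In clone 2 a single peak of 1750 bp covered 100% of it. *B2m* held 1.94, 2.13 and 1.40 times the reads of *H2-K1*, and *H2-D1* 2.26, 1.64 and 2.48 times those of *B2m*.

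*Psmb9* and *Tap1* start head to head on chromosome 17, and their annotated ends overlap by 212 bp. A shared promoter peak covered both starts, with 89 reads in clone 1 (71.5 to 110) and 116 in clone 2 (95.9 to 139). In clone 3 the same stretch held 2 shorter peaks, of 314 and 435 bp, with 39 and 51 reads. The percentile of the shared peak was 54.8, 14.0 and 25.0. The low rank in clone 2 went with a local background of 3 reads of its unidentified control at that summit, against 0.9 in clone 1, and by reads alone the shared peak was at percentiles 45.0, 24.3 and 17.3. The mark at this start cannot be divided between the transporter gene and the proteasome gene.

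*Psmb8* (chr17:34197721-34201454, plus strand) starts 0.496 kb beyond the end of *Tap1*. Its strongest promoter peak held 63 reads in clone 1 (48.4 to 80.6), 136 in clone 2 (114 to 161) and 54 in clone 3 (40.6 to 70.5), at percentiles of 42.4, 42.3 and 35.4. These ranks differed less between clones than those of any other gene with a peak in all 3. The summits lay within 79 bp of starts inside the gene, and the printed window was covered in full in clones 1 and 2 and to 25.3% in clone 3, where the GAS match lay outside the peak. The ratio of *Psmb8* reads to those of the shared *Psmb9* and *Tap1* peak was 0.71, 1.17 and 1.06, so neither was higher in all clones.

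*Tap2* (chr17:34203527-34216321, plus strand) had its strongest peak at a start inside the gene and not at the outermost one. The summits lay 165, 130 and 237 bp from the start at position 34204567, and held 84 reads in clone 1 (67.0 to 104), 127 in clone 2 (106 to 151) and 57 in clone 3 (43.2 to 73.9), with percentiles of 59.1, 39.1 and 32.3. Only clone 2 had a further peak at the outermost start, with 34 reads. *Tapbp* (chr17:33915899-33929292, plus strand) likewise had its strongest peak near an inner start, at position 33919828, with 113 reads (93.1 to 136), 189 (163 to 218) and 68 (52.8 to 86.2) and percentiles of 69.0, 61.5 and 39.7. A weaker peak at the outer starts of *Tapbp*, with 51, 107 and 42 reads, was within 1 kb of a start of its neighbour *Zbtb22* too.

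*Nlrc5* (chr8:94434356-94527272, plus strand) was the exception among the 10 genes. Clone 2 had a promoter peak of 836 bp at chr8:94433852-94434687, with 89 reads (71.5 to 110), a fold enrichment of 8.16 and a percentile of 8.57, and 2 weaker peaks in introns with 41 and 26 reads. Clones 1 and 3 had no peak anywhere over the 92917 bp of the gene. The local background under the clone 2 peak was 3.79 reads of its unidentified control, and chromosome 8 as a whole had a mean background at its peaks of 1.35, 1.34 and 1.38 times that of the other autosomes in clones 1, 2 and 3. At a background within 10% of that value the weakest listed peak of clone 1 had 29 reads and that of clone 3 had 37. Scaled by the median promoter ratio between clones, the clone 2 peak corresponds to 38.9 reads in clone 1 and 32.3 in clone 3. A peak of the same relative height would thus be past the weakest listed one in clone 1 but under it in clone 3, where a difference from clone 2 was not detectable at this depth. The lists do not give the background at this site in clones 1 and 3, and its part in the missing peaks was not tested.

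*Cd274* (chr19:29367455-29388095, plus strand) had the fewest reads of the genes with a peak in all clones, although in clone 3 it equalled *H2-K1* with 43. Its promoter peak held 25 reads in clone 1 (16.2 to 36.9), 61 in clone 2 (46.7 to 78.4) and 43 in clone 3 (31.1 to 57.9), at percentiles of 5.48, 17.5 and 11.7. The summits lay 165, 586 and 297 bp upstream of the only annotated start. In every clone this peak was also within 1 kb of a start of *Plgrkt*, so its reads and rank cannot be assigned to *Cd274* alone. *Plgrkt* had a stronger peak of 104 reads in clone 2, 5702 bp upstream of *Cd274*. An intronic region about 4.96 kb inside *Cd274* held 25 reads in clone 1 and 40 in clone 3 and no peak in clone 2. This was an exception to the larger number of peaks of clone 2, which had 1 peak over the body of *Cd274* against 3 in each of the other clones.

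The order of the genes by promoter reads was partly shared between clones. *H2-D1* came first in every clone, and its interval did not overlap that of the next gene in any of them. *Tapbp* and *B2m* came next, in either order, with intervals that overlapped each other in all 3 clones. *Tap2*, *Psmb8* and the shared *Tap1* and *Psmb9* peak followed, and neighbours in the order among these overlapped in every clone. In clone 2 the interval of *Tapbp* lay above that of *Psmb8*, the next in order. *H2-K1* came after these in each clone, and *Cd274* last, with the same number of reads in clone 3. The intervals of *H2-K1* and *Cd274* were separate in clone 1 and overlapped in clones 2 and 3. *Nlrc5* in clone 2 fell between *H2-K1* and *Cd274*.

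After division by a size factor per clone, taken as the median ratio over the 10194 genes with a promoter peak in all clones, the clones could be set side by side, and over all these genes the highest clone exceeded the lowest by a median of 1.39 times. Among the members the highest clone exceeded the lowest by 1.09 times at *Psmb8*, 1.26 times at *H2-K1*, 1.38 times at *Tapbp* and 1.43 times at *B2m*. *Tap2* differed by 1.52 times, *H2-D1* by 1.59 times and the *Tap1* and *Psmb9* peak by 1.76 times. *Cd274*, whose peak is also at a start of *Plgrkt*, differed most, by 2.07 times, with 30.8, 32.9 and 63.8 normalised reads in clones 1, 2 and 3. Among all genes with a promoter peak in every clone these spreads were at percentiles from 5.37 for *Psmb8* to 90.2 for *Cd274*. In a clone, a mark carried by fewer cells and a lower level in every cell cannot be told apart.

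The 7 members on chromosome 17 lie in a span of 1351.6 kb, in the order *Tapbp*, *H2-K1*, *Psmb9*, *Tap1*, *Psmb8*, *Tap2* and *H2-D1*, at chr17:33915899-35267499. Between the genes lie 66.7 kb from *Tapbp* to *H2-K1*, 182 kb from *H2-K1* to *Psmb9* and 1046 kb from *Tap2* to *H2-D1*. Peaks covered 5.35%, 8.50% and 3.66% of the span in clones 1, 2 and 3 (mean 5.84 ± 2.46 (SD, n = 3)), against 1.37%, 2.03% and 1.21% of chromosome 17 and 1.07%, 1.59% and 1.05% of the autosomes. The span holds 68.8 coding genes per Mb and the autosomes 8.44. Of its 93 coding genes 51, 59 and 46 had a promoter peak, which is 54.8%, 63.4% and 49.5% and lies near the share of all coding genes given above.

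The mark was unevenly placed within the span. The 4 genes from *Psmb9* to *Tap2* carried 3 regions shared by all clones, of which *Psmb9* and *Tap1* share 1, in the 34.3 kb from the end of *Psmb9* to the end of *Tap2*. Beyond the last peak over *Tap2* followed the longest stretch of the span without a peak, 381, 374 and 381 kb in clones 1, 2 and 3. It holds the class II genes *H2-Ob*, *H2-Ab1*, *H2-Aa*, *H2-Eb1* and *H2-Eb2* and the butyrophilin-like genes, 10 coding genes in all. On the other side, the class II genes *H2-DMb1* and *H2-Oa* had no promoter peak in any clone either. *H2-DMa* did, with 269, 442 and 180 reads, but these peaks were also within 1 kb of a start of *Brd2*, a bromodomain gene, so they cannot be assigned to *H2-DMa*.

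**Figure D2:**
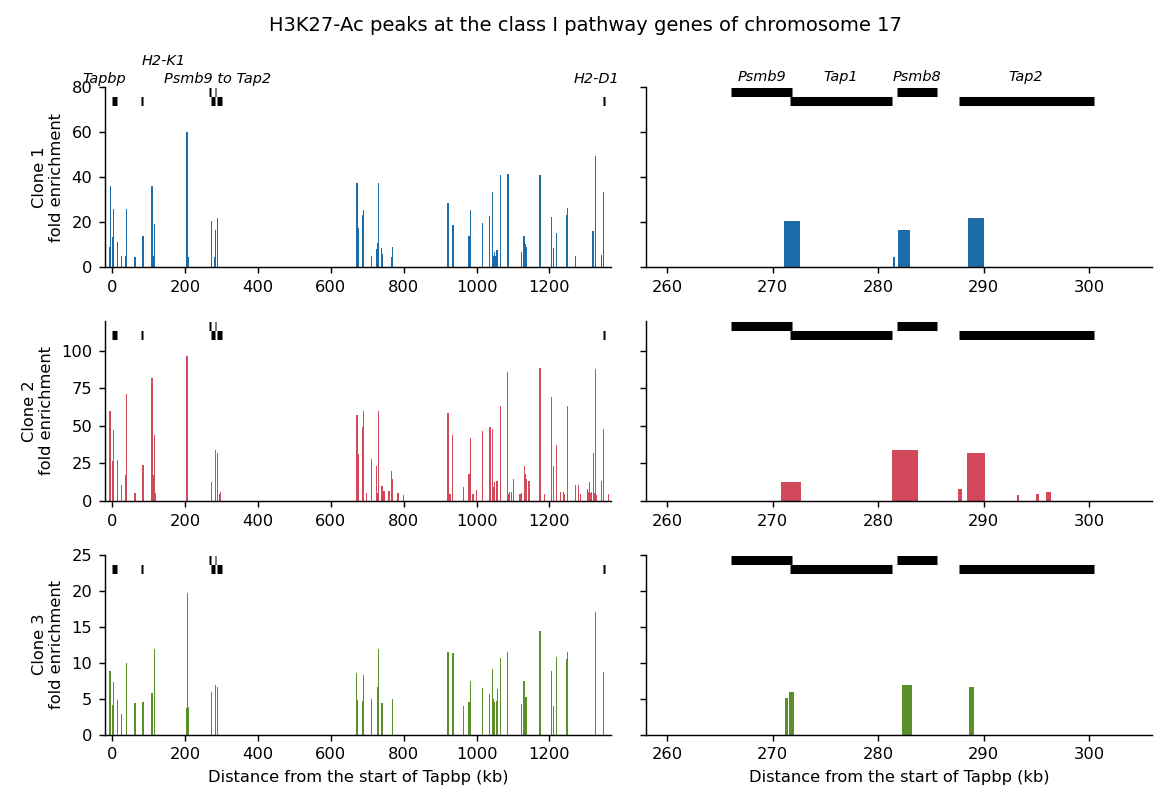
H3K27-Ac peaks of clones 1, 2 and 3 (rows) over the chromosome 17 span, by distance from the start of *Tapbp* in kb, with the whole span at left and the cluster from *Psmb9* to *Tap2* at right; bar height is fold enrichment on an axis of its own for each clone, bar width the peak (widened where too narrow to draw), and black bars mark the 7 genes. Each clone has peaks at the starts in the cluster and none in the 374 kb that follow them in every list.

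A peak over the gene body was found for 9, 10 and 9 of the genes in clones 1, 2 and 3 and for 9 in all clones, where 52.1%, 60.2%, 51.3% and 48.3% of all coding genes had one. Most of these peaks were promoter peaks that reach into the gene. With promoter peaks left out, no gene had a body peak in all 3 clones. A peak within 50 kb was found for all 10 genes in every clone, where 73.6%, 78.2% and 74.7% of coding genes had one and 71.4% in all clones. The median number of such peaks was 4, 7 and 4 per gene and 2, 4 and 2 for all coding genes. *Psmb9*, *Tap1*, *Psmb8* and *Tap2* each had 4, 7 and 4, and these were the same peaks, counted anew for each gene. The medians of the members thus equal the values of this cluster. It lies in a span with 68.8 coding genes per Mb, against 8.44 on the autosomes.

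Merged over the clones, 71 regions lay within 50 kb of a member. Of these 23 were found in all 3 clones, or 32.4%, while 27.3% of the 57727 regions of the genome were. A single clone accounted for 40 regions, of which 36 were found in clone 2 alone, 3 in clone 1 and 1 in clone 3. Around the chromosome 17 genes 15 of 42 regions were shared by all clones, and all 22 found in a single clone were of clone 2. Genome-wide, 25255 of 33914 single-clone regions were of clone 2, which has the longest list.

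Of the 23 shared regions 20 were at a promoter of a coding gene, and 9 of these at a promoter of a member. The strongest regions beside the members were at starts of neighbouring genes. Near *H2-K1* the start shared by *Rxrb*, a retinoid X receptor gene, and *Slc39a7* held 177, 405 and 113 reads, and that of the Polycomb gene *Ring1* held 160, 331 and 109. In clone 2 alone the *Ring1* peak also came within 1 kb of a start of *H2-Ke6*. Near *H2-D1* the start of the RNA helicase gene *Ddx39b* held 208, 383 and 162 reads, and near *Tapbp* that of the histone chaperone gene *Daxx* held 198, 336 and 83. *Rxrb* and *Ring1* held more reads than the *H2-K1* promoter in every clone, and *Daxx* more than *Tapbp*, whereas *H2-D1* was above *Ddx39b* in clone 1 and below it in clones 2 and 3. *Spg11* near *B2m* had 119, 336 and 104 reads, and *Herpud1* near *Nlrc5*, a gene of protein quality control in the endoplasmic reticulum, 188, 408 and 158. *Cpne2*, beyond the far end of *Nlrc5*, had 47, 255 and 82 reads, so both flanks of *Nlrc5* carried shared peaks while its own start did not.

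The other 3 shared regions lay away from coding promoters. At *B2m* a pair lay downstream, at chr2:122163708-122164624 and chr2:122171691-122172872, which are 16.5 and 24.6 kb beyond the start. The first held 63, 45 and 38 reads and the second 29, 48 and 62, so the clone with most reads differed between them. The remaining region lay at chr17:33978004-33979223, 21.7 kb beyond the start of *H2-K1* and between *H2-K1* and *Tapbp*, with 23, 45 and 33 reads. *H2-D1* had no shared region of this kind, and its nearest further region, 4.52 kb upstream, held 26 and 75 reads in clones 1 and 2 and no peak in clone 3. Which gene any of these regions acts on was not measured.

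**Figure D3:**
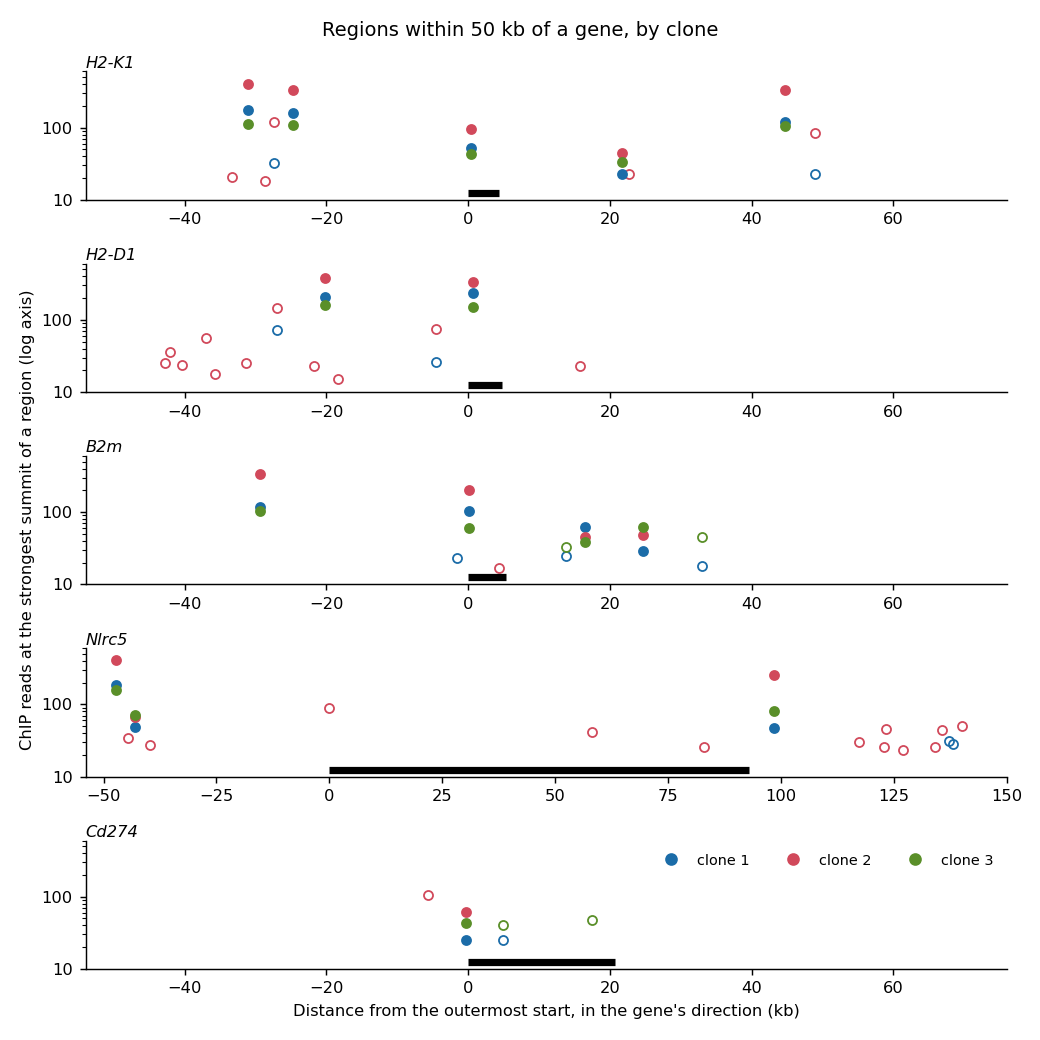
Regions within 50 kb of 5 of the genes, by the distance of the region's centre from the outermost start in the gene's direction (kb) and the ChIP reads at the strongest summit of each clone (log axis); filled points are regions with peaks in all 3 clones, open points those in fewer, and black bars the genes. *B2m* has a pair of filled regions 16.5 and 24.6 kb beyond its start, and *Nlrc5* has filled regions on both flanks but only an open point of clone 2 at its start.

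The wider pathway was described through further lists, by the number of genes with a promoter peak in all clones. Several of these lists were marked throughout: all 10 other genes of peptide processing and loading, all 7 constitutive beta subunits of the proteasome, all 12 SXY and NF-kB factors and 16 of 17 interferon receptor and signalling genes carried one in every clone, against 46.5% of coding genes. The strongest promoter peaks of *Psme2*, *Tapbpl*, *Pdia3*, *Irf3*, *Rfxank* and *Nfya* were within 1 kb of a neighbour's start in every clone. That of *Psmb1* was so in clones 1 and 2, and those of *Stat2* and *Socs1* in clone 2. Like the peaks at *H2-DMa*, these are counted here but cannot be assigned to the listed gene. The exception among the signalling genes was the kinase gene *Tyk2*, which lacked a promoter peak in clone 3. The SXY and NF-kB factors had a median percentile of 92.1, 92.4 and 75.4 in clones 1, 2 and 3, beside 54.8, 33.7 and 32.3 for the class I pathway genes. The interferon receptor and signalling genes were at 68.7, 55.4 and 45.4 and the other processing and loading genes at 63.5, 53.2 and 47.5.

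Of 14 other class I heavy chain genes 5, 11 and 4 had a promoter peak in clones 1, 2 and 3 and 4 in all clones. These are 35.7%, 78.6%, 28.6% and 28.6% of the list, where 49.8%, 56.9%, 48.1% and 46.5% of all coding genes had one. *H2-T3*, *H2-M2* and *H2-M5* had no promoter peak in any clone. The genes *H2-Q1*, *H2-Q2*, *H2-Q6*, *H2-Q7*, *H2-Q10* and *H2-T10* had one in clone 2 alone, and *H2-T24* in clones 1 and 2. *H2-T10* is annotated as a polymorphic pseudogene and not as a coding gene. *H2-Q6* and *H2-Q7* are uncertain, since only 49.4% and 55.3% of the 64-base words around their starts occur once in the genome. The 4 marked in all clones, named after their values were seen, were *H2-Q4*, *H2-T22*, *H2-T23* and *H2-M3*. Around their starts 96.6%, 83.9%, 61.8% and 98.6% of such words occur once, so *H2-T23* and, less so, *H2-T22* are uncertain too. In each clone the strongest promoter peak of *H2-T22* was also within 1 kb of a start of *Gm6034* and cannot be assigned to *H2-T22*.

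Interferon-stimulated genes had a promoter peak in 6, 12 and 8 of 16 cases and 5 in all clones, or 8 without clone 1. In clones 1, 2 and 3 these are 37.5%, 75% and 50% of the list, below, above and near the 49.8%, 56.9% and 48.1% of all coding genes. *Mx2*, annotated as a polymorphic pseudogene, is counted in every clone but has no percentile among coding genes. The other genes with a peak had median percentiles of 18.4, 8.24 and 15.0. *Ifit1*, *Oas1a*, *Rsad2* and *Cxcl10* had none in any clone. *Isg15* had one in clones 1 and 2, *Ifit2*, *Oasl2* and *Gbp3* in clones 2 and 3, and *Ifit3*, *Mx1* and *Usp18* in clone 2 alone. Of 9 class II pathway genes 2 had one in each clone, *H2-DMa*, described above, and *Cd74*, the invariant chain gene, with 41, 20 and 50 reads. The class II transactivator gene *Ciita* had none. Other immune checkpoint and NK ligand genes had one in 6, 7 and 6 of 12 cases and 5 in all clones. Their shares by clone, 50%, 58.3% and 50%, lay near those of all coding genes. *Pdcd1lg2*, the PD-L2 gene next to *Cd274*, had none in any clone, nor did *Cd86*, *Vtcn1* and *Raet1e*.

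The cell type of the clones was set beside marker lists, where 49.8%, 56.9% and 48.1% of all coding genes had a promoter peak. Of 10 keratinocyte and hair follicle markers 3, 4 and 2 had a promoter peak in clones 1, 2 and 3. *Krt5*, *Krt17*, *Trp63*, *Lef1* and *Cdh1* had none in any clone. *Trp63* and *Cdh1*, however, had peaks elsewhere over the gene body, 6, 10 and 10 at *Trp63* and 4, 8 and 2 at *Cdh1* in clones 1, 2 and 3, while *Krt5*, *Krt17* and *Lef1* had none there either. A promoter peak was found at *Krt14* in clone 1, at *Krt15* and *Lhx2* in clone 2, and at *Sox9* and *Cdh3* in all clones. Of 9 fibroblast markers 7, 7 and 5 had one, with *Thy1* in none. The defining basal keratin genes were thus absent from the peaks of most clones. Of 8 immune markers 1, 2 and 0 had a promoter peak, *Cd68* in clones 1 and 2 and *Csf1r* in clone 2, and the pan-leukocyte gene *Ptprc* had none. Of 4 endothelial markers only *Tek* had one, in clone 3. *Pecam1*, however, had 2, 6 and 4 peaks over its gene body in clones 1, 2 and 3, and *Csf1r* had 0, 4 and 1. The other immune and endothelial markers without a promoter peak had no peak over the gene body either.

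**Figure D4:**
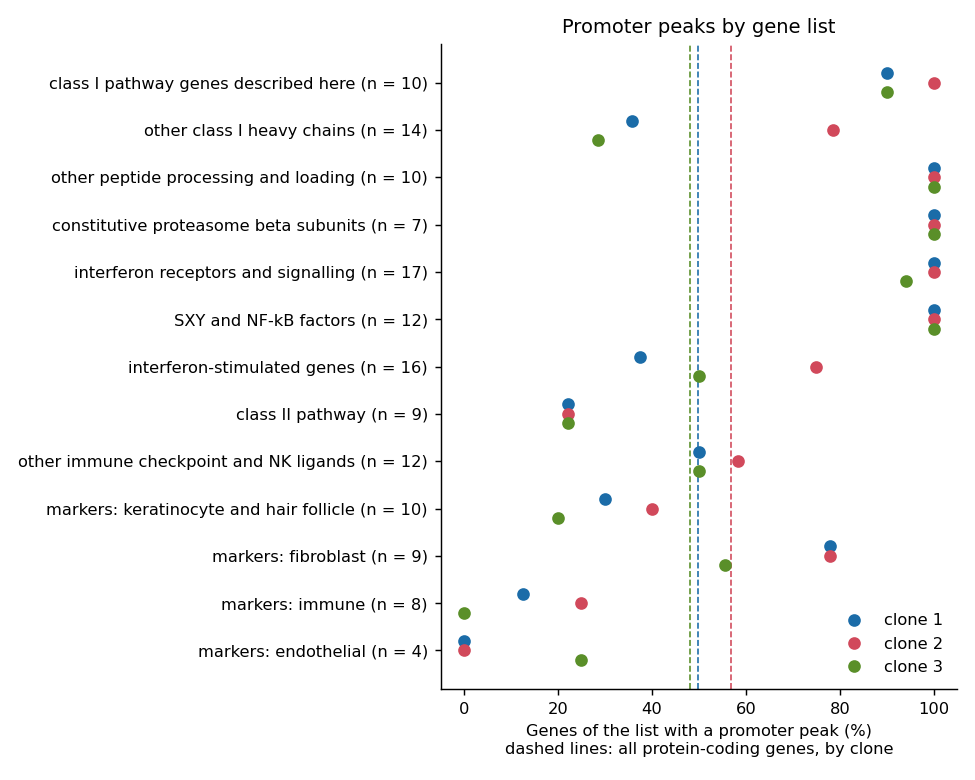
Share of the genes of each list with a promoter peak in clones 1, 2 and 3 (points, %), with the number of genes in brackets and dashed lines at the share of all coding genes in each clone, 49.8%, 56.9% and 48.1%. The 10 class I pathway genes are at 90%, 100% and 90%, and the class II list at 22.2% in each clone.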

How the data were processed

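H3K27-Ac ChIP-seq libraries of 3 clones and IgG libraries of clones 1 and 3 were sequenced as single-end reads. The submitters' processing notes name Bowtie2, MACS2 2.1.1 and GRCm38. The authors called peaks per clone. By the peak names, a filter against allelic mapping bias had been applied in clones 1 and 2, while for clone 3, whose libraries were merged, no such filter is named. Reads were mapped to the reference and not to the alleles of the clones, which can lower values at variable genes. The fold enrichment in the deposited lists is a ratio, of the summit's ChIP pileup plus 1 to its local background plus 1. The −log10 columns, also as deposited, hold the p-value and q-value of the peak. The lowest −log10 q was 1.30, 1.33 and 1.35.

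Peaks off chromosomes 1 to 19, X and Y were left out (5, 21 and 3). ChIP reads and background were solved from fold enrichment and p with Python 3.11.15, numpy 2.4.6, pandas 2.3.3 and scipy 1.17.1, and the solver was tested on simulated data. More than 1 solution was found for 38, 59 and 49 peaks. The solver returned fragment lengths of 225, 237 and 260 bp and a weight per ChIP read of 0.424, 0.428 and 0.308 control reads. Genes and starts are those of GENCODE M21, an overlap of 1 bp counted, and coordinates count from 1. Figures were drawn with matplotlib 3.10.9. Promoter windows and motifs came from RefSeq. All 10 members are named; of the 12 other lists (128 genes), genes with a promoter peak in no clone or in some clones may be named, and neighbours where they hold the strongest peak nearby. *Zbtb22*, *Ring1*, *H2-Ke6*, *Brd2*, *Cpne2*, *Gm6034* and the genes of the stretch without peaks were chosen for naming once their values were known. The same holds for the genes of the other lists named for a peak at a neighbour's start. The members and lists were chosen with earlier results of these data known. With 1 condition no test between groups was made, the SD is over clones, and their number limits the precision. Alternatives were other windows, starts, overlaps, distances, measures of strength and peak thresholds, and leaving out each clone.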

Additional observations from a re-analysis of the deposited data

How the results depend on the processing

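Of 139 alternative values for 18 results 129 stayed within the limit set for each, which is 1.5 times for a count and 1 SD over clones otherwise. The number of class I pathway genes with a promoter peak in all clones was 8 or 9 under every alternative. The 8 arose from the loss of *B2m* in clone 3 where a peak had to cover a start, of *H2-K1* in clone 3 at a −log10 q of at least 5, and of *Tap2* in clone 3 with the outermost start alone. The mean of the median percentile ran from 30.1, by ChIP reads, to 51.8, by bases under peaks. With peaks that reach the promoter window left out, 0 genes had a body peak in all clones, and within 100 kb the median number of peaks per gene rose to 7.33 from 5 as the window grew. With a window of 500 bp, a −log10 q of at least 5 or the same number of peaks per clone, the class II list had 1 gene with a promoter peak in all clones in place of 2. At a −log10 q of at least 5, other class I heavy chains had 2 in place of 4 and interferon-stimulated genes 3 in place of 5. Leaving out each clone in turn gave 9 genes each time, mean percentiles from 33.0 to 44.2, 4 to 5.5 peaks within 50 kb, 4.50% to 6.93% of the chromosome 17 span, 5 to 8 interferon-stimulated genes (8 without clone 1), 4 to 7 fibroblast markers (7 without clone 3) and 0 to 1 immune markers (1 without clone 3). No paired analysis was possible because there is 1 condition and each clone has a single list. The reads at the weakest peaks, 13, 12 and 25, limit what a missing peak can show.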
